A study of Homo sapiens with 18 samples.

Results

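YAP1 and WWTR1, the gene of TAZ, were followed here together with TEAD1 and 7 of their best known target genes (CYR61, CTGF, ANKRD1, AJUBA, AMOTL1, AMOTL2 and LATS2) in spheroidal aggregates of 2 brain tumor cell lines exposed to a direct-current electrical field (dcEF). The 10 genes were found by name, the values of all transcripts carrying a name were summed, and they made up 49 of the 145326 transcripts and 10 of the 32490 gene names measured. All 10 passed the filter on low counts in both lines. U87 mg is an established human cell line from a glioblastoma, and DAOY one from a desmoplastic cerebellar medulloblastoma. Aggregates in Matrigel, formed from 700 K and from 1.4 M cells in the labels and from 700 K cells alone in the published methods, spent 24 h in electrotaxis channels before they received no field (0 h) or a continuous dcEF of 250 V/m for 2 h or 8 h. Each of these 6 groups held 3 RNA-SEQ samples, and 3 channels were pooled into each sample. Exposed aggregates also spent longer in the channel than controls, and this cannot be told apart from the field, since aggregates held as long without it are not analysed here. The replicates were chosen for RNA quality from the biological replicates prepared, and each line stands for 1 tumor.

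YAP and TAZ are transcriptional coactivators that carry no DNA-binding domain of their own and act on genes mainly through the TEAD transcription factors. The Hippo kinase cascade, which ends in the kinases LATS1 and LATS2, phosphorylates YAP and TAZ and keeps them out of the nucleus, while tension on the actin cytoskeleton and a stiff matrix favor their nuclear form. Much of this control acts on the proteins, so that the mRNA of YAP1 or WWTR1 is not a readout of pathway activity, and expression of the target genes is commonly used in its place. The targets have different roles. CYR61 and CTGF encode secreted matricellular proteins of the CCN family, ANKRD1 encodes an ankyrin repeat protein of the nucleus and the sarcomere, and AJUBA encodes a LIM domain protein that can hold LATS kinases in check. LATS2, AMOTL1 and AMOTL2 encode negative regulators of YAP and TAZ, and LATS2 and AMOTL2 are known as feedback targets.

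The promoters of the target genes are shown first because TEAD factors recognize a short element that can be read in them. RefSeq promoter windows of GRCh38.p14, running from 250 bases before to 50 bases after a start site, matched 8 of the 10 genes with 11 windows. No window was available for CYR61 or TEAD1, so their promoters were not examined. A TEAD element (GGAATG, or CATTCC for the other strand) was found in 6 of the 11 windows, while 14% of all 35116 windows of that length held one. The 250 bases before the start site are printed for the windows of CTGF, ANKRD1, AJUBA and AMOTL2 that held an element there, 5′ to 3′ on the minus strand of each gene, with the TEAD element in capitals.
CTGF, chr6:131951373-131951622: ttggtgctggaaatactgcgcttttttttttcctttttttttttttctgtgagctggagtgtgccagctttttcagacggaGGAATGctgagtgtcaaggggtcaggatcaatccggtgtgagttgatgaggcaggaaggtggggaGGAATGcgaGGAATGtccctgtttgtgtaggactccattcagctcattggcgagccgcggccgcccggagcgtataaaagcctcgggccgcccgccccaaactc
ANKRD1, chr10:90921088-90921337: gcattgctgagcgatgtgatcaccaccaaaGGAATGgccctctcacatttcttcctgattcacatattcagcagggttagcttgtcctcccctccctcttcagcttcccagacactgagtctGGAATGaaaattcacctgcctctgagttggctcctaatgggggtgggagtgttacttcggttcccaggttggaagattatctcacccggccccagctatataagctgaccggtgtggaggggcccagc
AJUBA, chr14:22976843-22977092: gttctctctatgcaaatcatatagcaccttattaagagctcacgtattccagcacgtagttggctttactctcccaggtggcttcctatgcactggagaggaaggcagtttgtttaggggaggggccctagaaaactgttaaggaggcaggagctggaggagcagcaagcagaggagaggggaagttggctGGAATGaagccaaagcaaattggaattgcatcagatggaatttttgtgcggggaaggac
AMOTL2, chr3:134374448-134374697: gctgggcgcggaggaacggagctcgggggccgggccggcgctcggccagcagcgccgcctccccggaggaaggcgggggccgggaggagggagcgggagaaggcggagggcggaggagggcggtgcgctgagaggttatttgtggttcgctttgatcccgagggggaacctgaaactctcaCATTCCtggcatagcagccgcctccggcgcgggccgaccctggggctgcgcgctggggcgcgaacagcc
CTGF held 3 elements, whose first bases lie at -169, -104 and -95 from the start site. ANKRD1 held 2, at -220 and -128, and at -195 a match to TGANTCA, the pattern used here for AP-1, which reads as its own kind on both strands. Its N accepts any base, so the pattern is looser than the AP-1 consensus, which has C or G there. The match in ANKRD1 reads TGATTCA and is not that consensus. Matches to this loose pattern were present in 7.71% of all windows. The annotated start of the measured ANKRD1 transcript lies 189 bases before the start site used here, so the element at -128 is inside that transcript. The AJUBA element at -59 lies in the window of the inner of its 2 start sites, and the outer window held none. The nearest annotated start of an AJUBA transcript measured here, that of ENST00000397388, lies 381 bases before the inner site. The AJUBA element is thus also inside that transcript and not before its start. The AMOTL2 element at -69 precedes the start of ENST00000422605, the more abundant of its transcripts. ENST00000249883, which held 25.3% of AMOTL2 TPM, starts at chr3:134374594, before the element, so the element is inside that transcript. Of the other windows, YAP1 held an element at -162 and LATS2 one 10 bases after the start site used here. The annotated start of the measured LATS2 transcript lies 39 bases after that site, so the LATS2 element precedes the start of that transcript. The windows of AMOTL1 and WWTR1 held none. No window held a CArG box, the element of the actin-regulated factor SRF, which 1.29% of all windows held. These matches describe the letters of the windows and do not show binding.

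The samples held 8341976 to 15610886 estimated counts each. Mitochondrial transcripts took 5.97% to 8.44% of the counts in DAOY at 8 h and 2.92% to 5.70% at 0 h, so that these groups did not overlap, and their part in the DAOY differences was not tested. Of 9 glial markers, NES, VIM, CD44 and CHI3L1 reached a median of 1 TPM in U87 mg, GFAP, OLIG2, S100B and SOX2 did not, and AQP4 was at 0 in all U87 mg samples. VIM, CD44, CHI3L1 and SOX2, also 4 of the 9, reached 1 TPM in DAOY. Of 10 genes of the cerebellar granule lineage and medulloblastoma, 6 reached 1 TPM in DAOY (ZIC1, ZIC2, PAX6, OTX2, GLI2 and PTCH1), BARHL1 was at 0 in all DAOY samples and ATOH1 was not listed. Also 6 of these genes reached 1 TPM in U87 mg, in which OTX2 was at 0. In bulk samples, fewer cells of a type and less RNA per cell cannot be told apart.

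The 10 genes were gathered with the differences between field times and 0 h in both lines already known. Those differences are therefore given as a description with a standard error (SE) and without p-values, and the comparisons of 2 h and 8 h with 0 h share the same control samples. Levels are in TPM, the abundance of a transcript per length relative to all transcripts of its sample, and differences are log2 fold changes of counts in edgeR.

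CYR61 and CTGF, which are often read as a pair, parted in DAOY. In DAOY, CYR61 was at 36.9, 26.8 and 30.4 TPM at 0 h, at 83.0, 69.6 and 97.0 TPM at 2 h, and at 121, 164 and 81.1 TPM at 8 h. All replicates at 2 h and at 8 h lay above all replicates at 0 h, and the ranges of 2 h and 8 h overlapped. The log2 fold change was 1.34 (SE 0.28) at 2 h and 2.01 (SE 0.29) at 8 h, and the ratio of mean TPM to 0 h was 2.65 and 3.89. CTGF in DAOY was at 177, 121 and 105 TPM at 0 h, at 153, 161 and 148 TPM at 2 h, and at 57.9, 79.5 and 45.4 TPM at 8 h. The 2 h range lay inside the 0 h range, and all replicates at 8 h lay below all replicates of both other times. Its log2 fold change was 0.11 (SE 0.27) at 2 h and -1.10 (SE 0.28) at 8 h, a ratio of mean TPM of 0.453 to 0 h and of 0.396 to 2 h. Mean CYR61 thus stood below mean CTGF at 0 h, with 31.4 ± 5.13 against 134 ± 37.5 TPM (SD, n = 3), and above it at 8 h, with 122 ± 41.6 against 60.9 ± 17.3 TPM.

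In U87 mg both genes were lower than in DAOY at 0 h and both had higher means with the field. CYR61 was at 13.1, 18.9 and 15.7 TPM at 0 h, at 25.9, 26.9 and 25.3 TPM at 2 h, and at 19.4, 28.8 and 37.3 TPM at 8 h. No replicate with field reached down to the 0 h range, although replicate 0 at 8 h was less than 1 TPM above it. The log2 fold change was 0.70 (SE 0.21) at 2 h and 0.92 (SE 0.21) at 8 h. CTGF was at 9.35, 19.8 and 18.7 TPM at 0 h, at 16.4, 28.7 and 29.1 TPM at 2 h, and at 15.6, 29.4 and 37.1 TPM at 8 h. Replicate 0 was the lowest of each of these groups, and the groups overlapped. The log2 fold changes of CTGF were 0.61 (SE 0.33) and 0.86 (SE 0.33), above 0 where that of DAOY at 8 h was below it. The difference of the 8 h changes, DAOY minus U87 mg, was 1.10 (SE 0.37) on the log2 scale for CYR61 and -1.95 (SE 0.47) for CTGF.

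**Figure D1:**
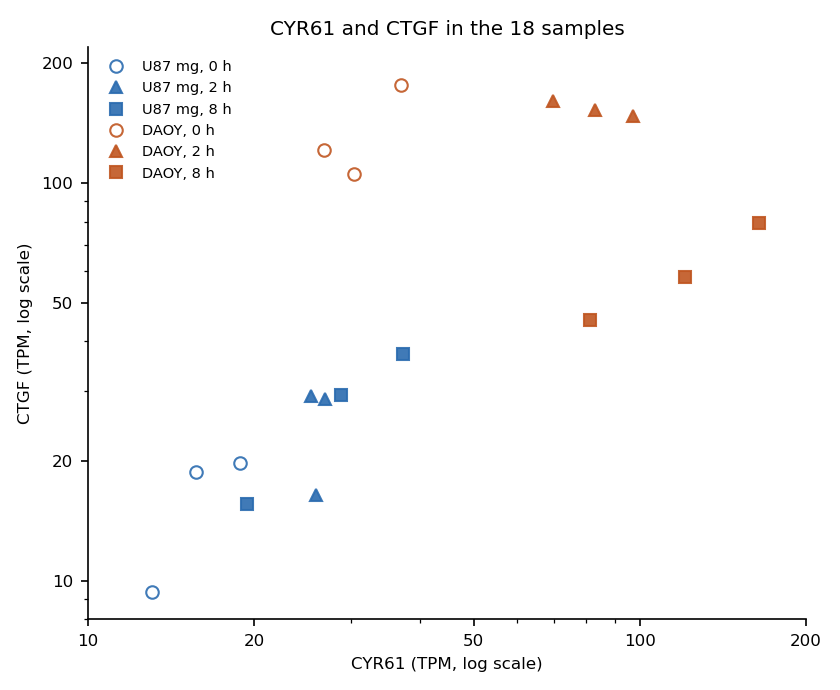
TPM of CYR61 (horizontal, log scale) against TPM of CTGF (vertical, log scale) in the 18 samples, with U87 mg in blue, DAOY in orange and a symbol for each time. The 3 DAOY samples at 8 h lie to the right of the DAOY 0 h samples and below them, at 45.4 to 79.5 TPM of CTGF, whereas no U87 mg sample with field lies to the left of the U87 mg 0 h samples.

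ANKRD1, the third of the classical targets, had the fewest counts of the 10 genes. In U87 mg it had 2 to 25 estimated counts per sample and 0.188 to 1.36 TPM, with overlapping groups at all times. Its log2 fold changes in U87 mg were -1.31 (SE 0.67) at 2 h and -0.34 (SE 0.58) at 8 h, below 0 where those of CYR61 and CTGF were above it. In DAOY it had 12 to 84 estimated counts per sample. There it was at 4.65, 3.61 and 1.15 TPM at 0 h, at 5.35, 1.23 and 2.79 TPM at 2 h, and at 6.49, 6.88 and 2.45 TPM at 8 h. Replicates of one group differed by up to several fold, and the log2 fold change of 0.79 (SE 0.63) at 8 h in DAOY was not much above its error.

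Of the 4 genes that encode regulators of LATS kinases or of YAP and TAZ, AJUBA had the highest log2 fold change at 8 h in DAOY, before LATS2 and AMOTL2, and AMOTL1 had the lowest. AJUBA was at 12.6, 13.7 and 14.2 TPM at 0 h, at 18.005, 19.6 and 21.1 TPM at 2 h, and at 54.9, 44.0 and 37.7 TPM at 8 h. The 3 times did not overlap, and each later time lay above the earlier one. The log2 fold change was 0.38 (SE 0.15) at 2 h and 1.48 (SE 0.15) at 8 h, and the ratio of mean TPM to 0 h was 1.45 and 3.38. At 8 h the TPM ratio was thus larger than the 2.78-fold difference in counts. In U87 mg, AJUBA was at 4.28, 10.5 and 5.96 TPM at 0 h, at 6.22, 6.91 and 7.91 TPM at 2 h, and at 8.08, 15.05 and 13.4 TPM at 8 h. The 0 h and 8 h ranges overlapped through replicate 1 at 0 h, and the log2 fold change at 8 h was 0.85 (SE 0.31).

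LATS2, the kinase at the end of the cascade, had small spreads in both lines. In DAOY it was at 8.47, 9.12 and 8.72 TPM at 0 h, at 12.3, 11.9 and 14.9 TPM at 2 h, and at 17.4, 21.9 and 15.6 TPM at 8 h. In U87 mg it was at 6.20, 5.93 and 5.68 TPM at 0 h, at 6.84, 7.69 and 8.61 TPM at 2 h, and at 8.35, 9.21 and 10.9 TPM at 8 h. In both lines all replicates with field lay above all replicates without it. The log2 fold changes were 0.51 (SE 0.19) and 1.12 (SE 0.19) at 2 h and 8 h in DAOY, and 0.36 (SE 0.16) and 0.75 (SE 0.16) in U87 mg.

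The angiomotin-like genes, whose proteins bind YAP and TAZ at cell junctions, differed from each other. AMOTL2 in DAOY was at 18.3, 15.4 and 27.8 TPM at 0 h, at 34.3, 44.0 and 34.8 TPM at 2 h, and at 34.4, 33.9 and 39.8 TPM at 8 h. Its higher level was present at 2 h (log2 fold change 0.83, SE 0.20) and was similar at 8 h (0.87, SE 0.20), without overlap with 0 h. In U87 mg, AMOTL2 ranged from 8.62 to 15.3 TPM at 0 h and from 14.2 to 16.3 TPM at 8 h, which overlapped. AMOTL1 stayed within 4.22 to 5.23 TPM over all U87 mg samples and within 14.2 to 19.2 TPM over all DAOY samples. Its log2 fold changes lay between -0.07 and 0.26, with overlapping groups in both lines.

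**Figure D2:**
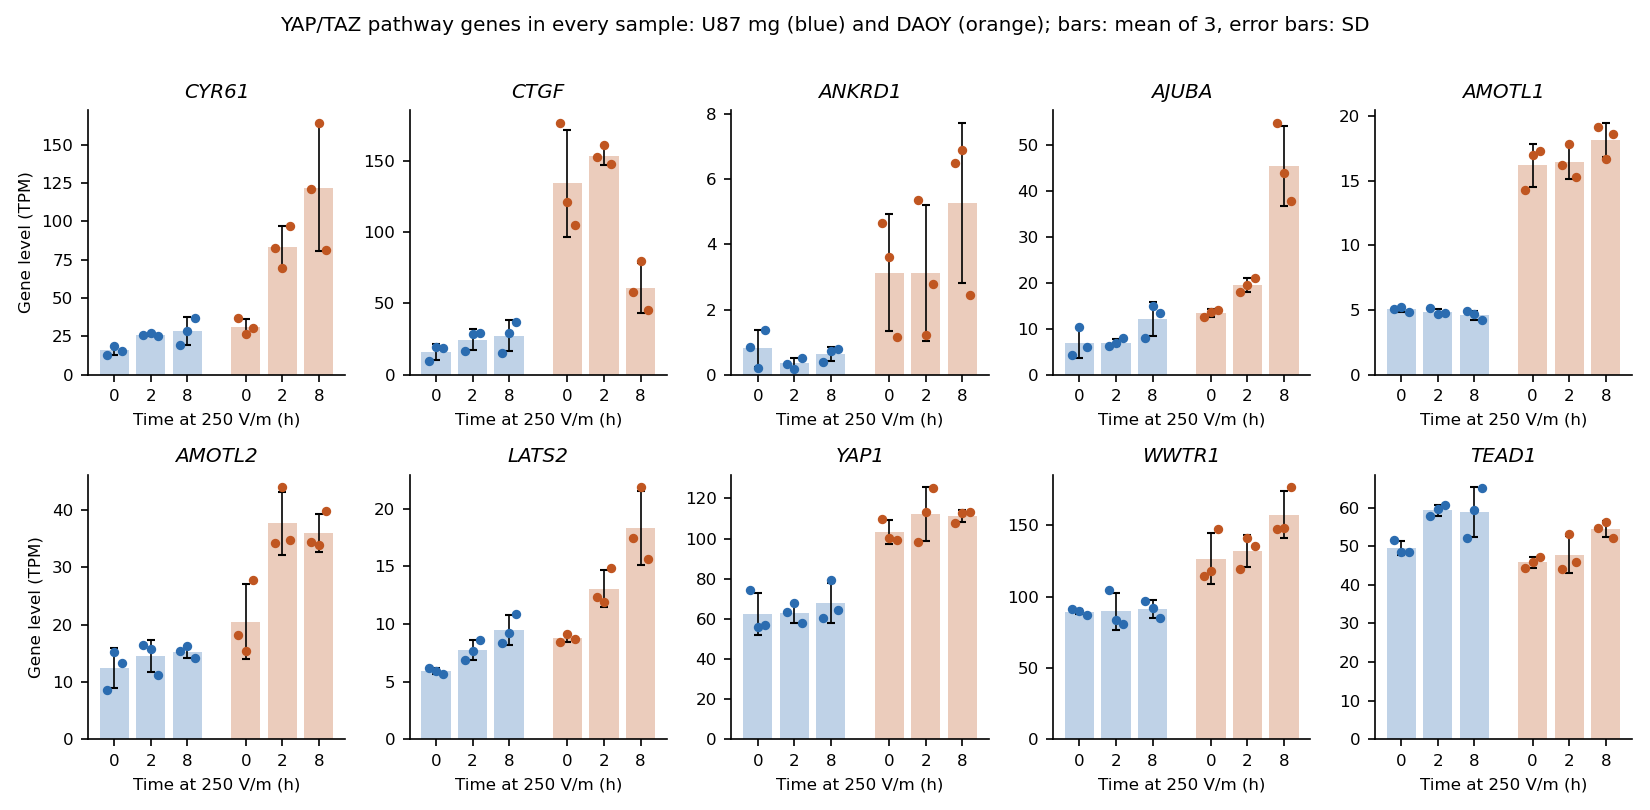
TPM of each of the 10 genes (vertical, a scale of its own from 0 for each gene) in every sample, by hours at 250 V/m, for U87 mg (blue) and DAOY (orange). Points are samples, bars means of 3 and error bars SD. CYR61, AJUBA and LATS2 are higher in all DAOY samples at 8 h than in any at 0 h, CTGF is lower in all of them, and YAP1 and WWTR1 overlap between 0 h and 8 h.

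The coactivators and their partner were among the more abundant of the 10 genes and differed little with time. YAP1 was at 74.4, 56.05 and 56.9 TPM at 0 h and at 60.3, 79.1 and 64.3 TPM at 8 h in U87 mg, and at 110, 100 and 99.2 TPM at 0 h and at 108, 113 and 113 TPM at 8 h in DAOY. WWTR1 ranged from 80.6 to 105 TPM over all U87 mg samples, and in DAOY it was at 115, 118 and 147 TPM at 0 h and at 147, 148 and 177 TPM at 8 h. The 0 h and 8 h ranges of both genes overlapped in both lines. The log2 fold changes of YAP1 lay between 0.03 and 0.25 and those of WWTR1 between -0.03 and 0.26 over the 4 comparisons, with SE of 0.11 to 0.18. On the TPM scale the WWTR1 difference in DAOY at 8 h was larger than in counts, at 0.32 in limma on log2(TPM + 1) against 0.08 (SE 0.18).

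TEAD1, which brings the coactivators to DNA, had narrow groups. It was at 51.6, 48.7 and 48.4 TPM at 0 h, at 57.8, 59.6 and 60.7 TPM at 2 h, and at 52.2, 59.4 and 65.1 TPM at 8 h in U87 mg. In DAOY it was at 44.4, 46.05 and 47.2 TPM at 0 h, at 44.2, 53.3 and 46.05 TPM at 2 h, and at 54.7, 56.3 and 52.2 TPM at 8 h. All 8 h replicates lay above the 0 h replicates in both lines, with log2 fold changes of 0.34 (SE 0.12) in U87 mg and 0.30 (SE 0.14) in DAOY.

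**Figure D3:**
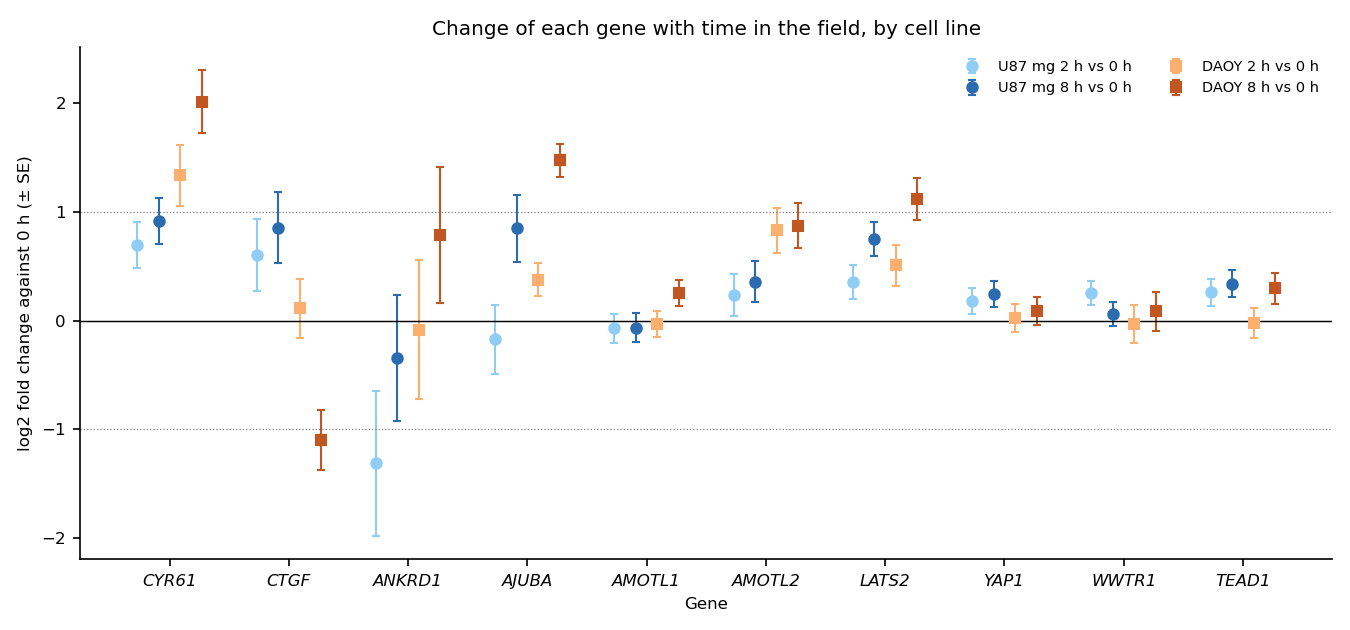
Log2 fold change against 0 h (vertical, with SE) of each gene at 2 h (light) and 8 h (dark) in U87 mg (blue circles) and DAOY (orange squares). The dotted lines mark log2 fold changes of 1 and -1. In DAOY at 8 h CYR61 stands at 2.01 and CTGF at -1.10, while YAP1 and WWTR1 stay between -0.03 and 0.26 in all 4 comparisons.

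A gene was called differentially expressed when its false discovery rate (FDR) was under 0.05 and its level had changed at least 2-fold, which is 1 on the log2 scale. In DAOY at 8 h, 4 of the 10 genes were called (CYR61, AJUBA and LATS2 higher, CTGF lower), where 3.13% of the 15396 genes tested were called, 1.19% higher and 1.94% lower. AMOTL2 passed the FDR without reaching the fold change, so that 5 of the 10 passed the FDR alone against 5.85% of all genes. In that comparison all replicates were higher in 5 genes and lower in 1, against 8.86% and 15% of all genes. In U87 mg at 8 h none of the 10 was called by edgeR, where 0.638% of 14106 genes were called, 0.184% higher and 0.454% lower. There LATS2 passed the FDR alone as 1.72% of all genes did, 5 of the 10 had an unadjusted p under 0.05 against 15.9% of all genes, and DESeq2 and limma called none of the 10. At 2 h edgeR called 0 genes of all in both lines, which is 0%. At that time an unadjusted p under 0.05 was found for 3 of the 10 genes in U87 mg and 4 in DAOY, where 8.78% and 2.75% of all genes had one, and DESeq2 called 3 and 1 genes of all but none of the 10. At 2 h all replicates were higher than at 0 h in 3 genes in U87 mg (CYR61, LATS2 and TEAD1) against 10.8% of all genes, and in 4 in DAOY (CYR61, AJUBA, AMOTL2 and LATS2) against 3.59%. No gene of the 10 had all replicates lower at 2 h, which 4.49% and 3.88% of all genes had. In U87 mg at 8 h they were all higher in CYR61, LATS2 and TEAD1 and lower in none, against 5.8% and 10.2%. Since the genes were chosen with these comparisons already known, nothing is read from their counts. The difference of the 8 h changes between lines passed an FDR below 0.05 for 0 of the 10 genes in edgeR and for 0.0121% of 16482 genes. An unadjusted p under 0.05 was found there for CYR61 and CTGF and for 8.88% of all genes, DESeq2 called CTGF and limma called none of the 10.

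The DAOY calls did not rest equally on all samples. CYR61 and AJUBA were called in all 9 fits that left out 1 DAOY sample. LATS2 was lost without replicate 1 at 8 h, where its log2 fold change was 0.94. CTGF was called in 1 of the 9, the fit without replicate 2 at 0 h, and its log2 fold change ranged from -1.37 to -0.73 with the sign kept in all 9. Of the settings without a replicate block, it was also lost with DESeq2's size factors in edgeR, with the most abundant transcript of each gene and with only the 6 samples compared. LATS2 was lost in limma on log2(TPM + 1) and with the most abundant transcript of each gene. AMOTL2 was called in the fit without replicate 2 at 0 h (1.09). CYR61 in U87 mg at 8 h was called in the fit without replicate 0 at 8 h (log2 fold change 1.12).

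Before any field, 4 of the 10 genes were called between the lines, a share close to the 41.2% of all genes that were called. Which comparisons the genes were chosen on is not stated, so this one of DAOY with U87 mg at 0 h may be among them. Its samples also served as controls in the comparisons with 0 h. The adjusted p-values given here for the 10 genes are therefore a description. CTGF had the largest difference, with a log2 fold change of 3.05 (SE 0.36, adjusted p = 1.03e-06 in edgeR), and a mean of 134 ± 37.5 TPM in DAOY and 15.96 ± 5.75 TPM in U87 mg (SD, n = 3). AMOTL1 was higher by 1.58 (SE 0.11, adjusted p = 3.28e-09 in edgeR), ANKRD1 by 1.87 (SE 0.65, adjusted p = 0.0195 in edgeR) and AJUBA by 1.11 (SE 0.26, adjusted p = 0.00142 in edgeR). These 4 of 10 genes were called, all higher in DAOY, where 23.4% of all genes were called higher. The ANKRD1 call was lost without replicate 1 of U87 mg or replicate 0 of DAOY at 0 h, with log2 fold changes of 1.40 and 1.35. The AJUBA call was lost without replicate 0 of either line at 0 h (0.85 and 1.00), where it was under the fold change, and in limma on log2(TPM + 1). ANKRD1 was not tested when every sample needed at least 10 counts. Of the others, CYR61 (0.93), AMOTL2 (0.69), WWTR1 (0.54), LATS2 (0.51) and YAP1 (0.39) passed the FDR alone, as 60.7% of all genes did. In 8 of the 10 genes all DAOY replicates lay above those of U87 mg, against 33.7% of all genes, and in TEAD1 all lay under them, against 23.1%. TEAD1 differed by -0.10 (SE 0.13, adjusted p = 0.533 in edgeR), which is within its error.

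Per length, the order of the genes at 0 h was not the same in both lines. In U87 mg, WWTR1 (89.4 ± 1.95 TPM, SD, n = 3), YAP1 (62.5 ± 10.4) and TEAD1 (49.6 ± 1.74) stood above all targets, of which CTGF, CYR61 and AMOTL2 were next at 15.96 ± 5.75, 15.9 ± 2.89 and 12.4 ± 3.43 TPM and overlapped. AJUBA (6.91 ± 3.21 TPM) overlapped AMOTL2 above it as well as LATS2 (5.94 ± 0.260) and AMOTL1 (5.04 ± 0.1998) under it, the last of which did not overlap each other, and ANKRD1 was last (0.809 ± 0.573). In DAOY, CTGF overlapped both WWTR1 (127 ± 18.1 TPM) and YAP1 (103 ± 5.89), which did not overlap each other. TEAD1 (45.9 ± 1.41 TPM) followed, then CYR61 (31.4 ± 5.13) and AMOTL2 (20.5 ± 6.497), which overlapped, AMOTL1 (16.2 ± 1.67), AJUBA (13.5 ± 0.806), LATS2 (8.77 ± 0.328) and ANKRD1 (3.14 ± 1.80). At 8 h in DAOY, CYR61 overlapped WWTR1 and YAP1, and AJUBA (45.5 ± 8.67 TPM) overlapped TEAD1 and CTGF.

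Transcripts showed which forms made up these levels, within the limits of an estimate that divides reads among forms that share exons. CTGF, ANKRD1 and LATS2 have 1 listed transcript each, and ENST00000451137 held 99.6% of CYR61, so their values do not depend on this division. AJUBA has 7 listed transcripts. The shorter ENST00000397388 (chr14:22971815-22977223, 6 exons) held 57.8% of its TPM and the longer ENST00000262713 (chr14:22971174-22982642, 8 exons) 27.9%. In DAOY the shorter form went from 7.62 ± 1.35 TPM at 0 h to 27.2 ± 4.63 at 8 h and the longer from 5.45 ± 1.19 to 9.78 ± 1.57 (SD, n = 3). The share of the longer form was 29.8% to 49.7% at 0 h and 18.3% to 27.1% at 8 h in DAOY, which did not overlap. In U87 mg that share was 23.9% to 40.8% at 0 h and 21.0% to 24.1% at 8 h, which overlapped.

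YAP1, WWTR1 and AMOTL1 carried forms that the estimate moved between replicates. Of YAP1, 32.2% of the TPM lay in ENST00000528834, a processed transcript without a coding sequence that spans the last part of the gene. Summed over protein-coding forms, YAP1 was at 46.6 ± 0.63, 53.9 ± 3.21 and 52.7 ± 3.67 TPM at 0, 2 and 8 h in U87 mg and at 63.7 ± 2.71, 66.7 ± 2.77 and 59.7 ± 2.71 TPM in DAOY. The coding sums of 0 h and 8 h did not overlap in U87 mg, with 46.3 to 47.4 against 49.6 to 56.7 TPM, and overlapped in DAOY. Of WWTR1, 2 forms annotated for nonsense-mediated decay held 21.8% and 19.7% of the TPM, and the first of them took between 0.0448% and 40.8% in the 3 replicates of U87 mg at 0 h. The coding forms of WWTR1 were at 77.3 ± 15.1 TPM at 0 h and 77.3 ± 4.39 TPM at 8 h in DAOY, so that the higher summed TPM at 8 h lay in the decay forms. In AMOTL1, ENST00000317829 held 5.33% to 77.8% at 0 h and 0.779% to 4.18% at 8 h in U87 mg, a division too variable at 0 h to set against 8 h with 3 samples.

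**Figure D4:**
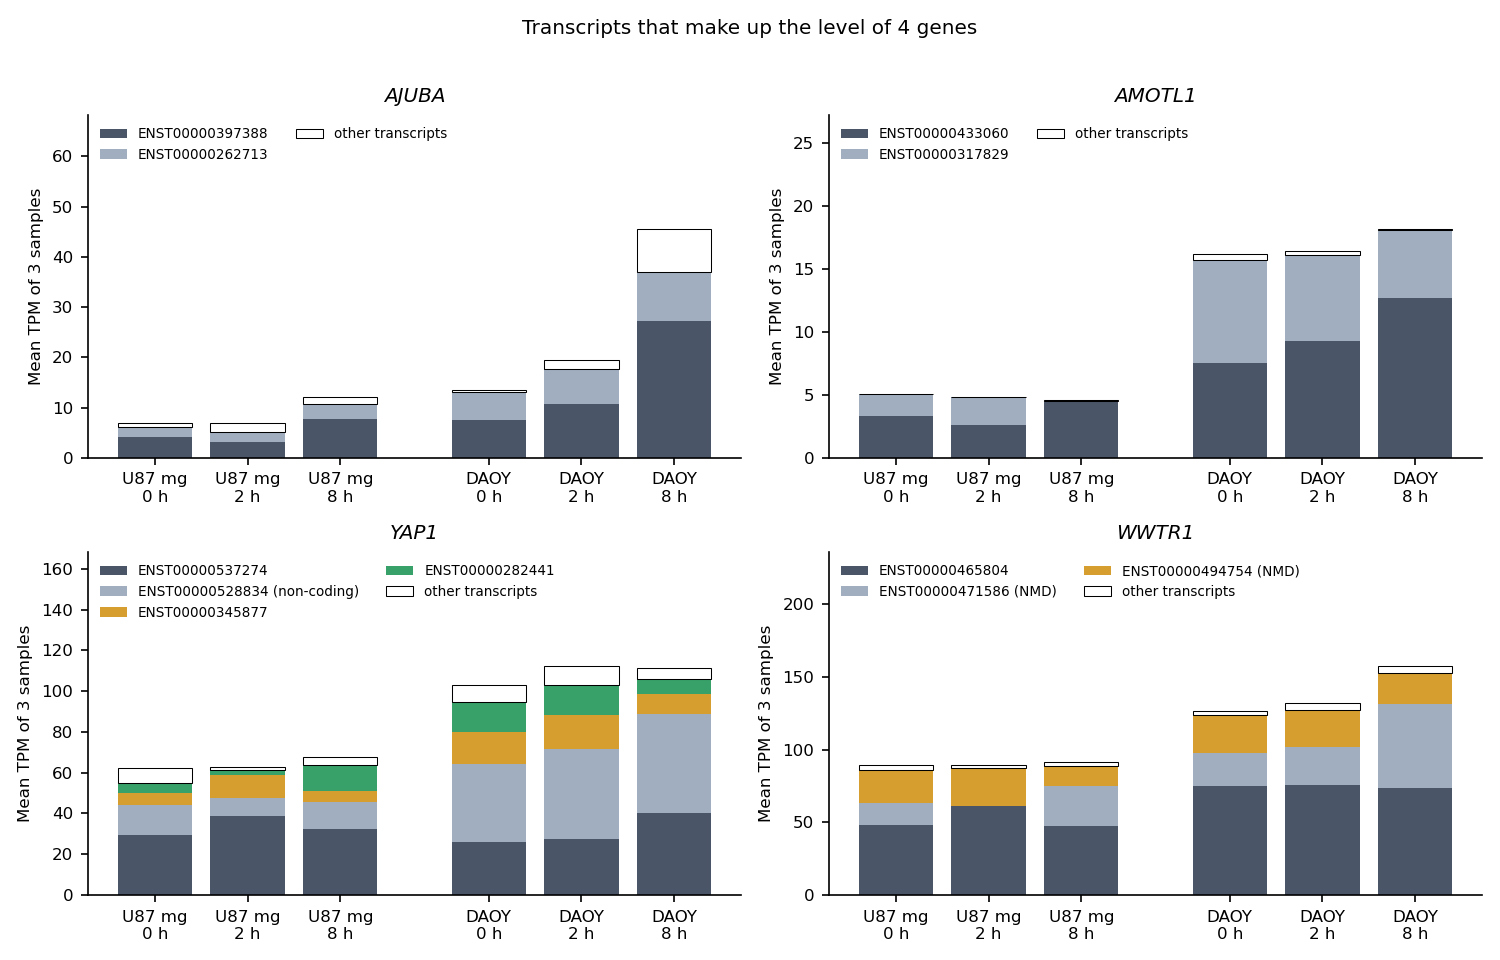
Mean TPM of 3 samples (vertical, stacked) of the transcripts that hold at least 10% of AJUBA, AMOTL1, YAP1 and WWTR1, and of all other forms together, in each group. In AJUBA the shorter ENST00000397388 makes up 27.2 TPM of the DAOY mean at 8 h. In WWTR1 the coding ENST00000465804 stays near 75 TPM in all DAOY groups. The mean of the decay form ENST00000471586 is higher at 8 h than at 0 h in DAOY, but its replicates at these times overlap.

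Outside the 10 genes, 4 lists from general knowledge of the pathway were followed over the same samples. The lists were drawn up with earlier results of these data known, so their values, with the adjusted p-values, are a description. The Hippo kinases and their upstream regulators (22 of 23 genes tested in DAOY) had a median log2 fold change of 0.41 at 8 h in DAOY, with 18 genes above 0, where the median of all genes was -0.01 and 48.8% were above 0. RASSF1, a scaffold that binds the Hippo kinases, was the 1 gene of this list that was called. In DAOY, RASSF1 was at 2.22, 5.51 and 3.49 TPM at 0 h and at 7.22, 10.2 and 10.5 TPM at 8 h, without overlap (log2 fold change 1.44, SE 0.32, adjusted p = 0.0281 in edgeR). In U87 mg, RASSF1 was at 10.5, 18.6 and 19.9 TPM at 0 h and at 30.4, 27.7 and 41.3 TPM at 8 h, also without overlap (1.13, SE 0.23, adjusted p = 0.0378 in edgeR). RASSF1 thus rose in both lines, but these calls were lost in 4 of 9 DAOY and 8 of 9 U87 mg fits that left out 1 sample. In U87 mg the kinase list had a median of 0.20, with 18 of 21 genes above 0.

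Other YAP/TAZ targets, 25 genes in DAOY, had a median of 0.34 at 8 h with 21 genes above 0, of which 2 were called. FOXF2, a forkhead transcription factor, was at 12.4, 9.66 and 13.0 TPM at 0 h and at 31.1, 21.6 and 34.0 TPM at 8 h in DAOY (log2 fold change 1.36, SE 0.27, adjusted p = 0.0220 in edgeR), and was listed at 0 in all U87 mg samples. DDAH1, an enzyme that breaks down methylated arginines, was at 19.1, 17.6 and 14.7 TPM at 0 h and at 31.6, 46.0 and 25.7 TPM at 8 h (1.05, SE 0.25, adjusted p = 0.0357 in edgeR). Both rose without overlap of their replicates, and the calls of FOXF2 and DDAH1 were lost in 5 and 7 of the 9 fits without 1 DAOY sample. DESeq2 also called GADD45B, a stress response gene, which was at 2.14 ± 0.570 TPM at 0 h and 5.19 ± 0.735 TPM at 8 h in DAOY (SD, n = 3; 1.34, SE 0.35, adjusted p = 0.0511 in edgeR). In U87 mg the median of these targets was 0.04, with 13 of 23 genes above 0 and none called by edgeR, DESeq2 or limma. Of the 23 genes, 5 had an unadjusted p under 0.05, against 15.9% of all genes. TEAD factors, their partners and further CCN genes (10 of 14 tested) had medians of 0.43 in DAOY and -0.11 in U87 mg at 8 h. Actin and SRF targets had medians of 0.32 in DAOY, with 18 of 20 genes above 0, and 0.05 in U87 mg. No gene of these last 2 lists was called at 8 h by edgeR. In DAOY 4 of 10 and 3 of 20 of their genes had an unadjusted p under 0.05, against 22.7% of all genes. DESeq2 called VGLL3, a cofactor of TEAD factors, and WISP1, a secreted CCN protein, in DAOY in opposite directions, no gene of either list in U87 mg, and limma called none. VGLL3 was at 6.15 ± 2.47 TPM at 0 h and 12.9 ± 2.18 TPM at 8 h (log2 fold change 1.06, SE 0.32, adjusted p = 0.0789 in edgeR), and WISP1 at 27.5 ± 5.97 and 14.2 ± 6.53 TPM (-1.14, SE 0.30, adjusted p = 0.0525 in edgeR). The medians were not compared by a test.

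**Figure D5:**
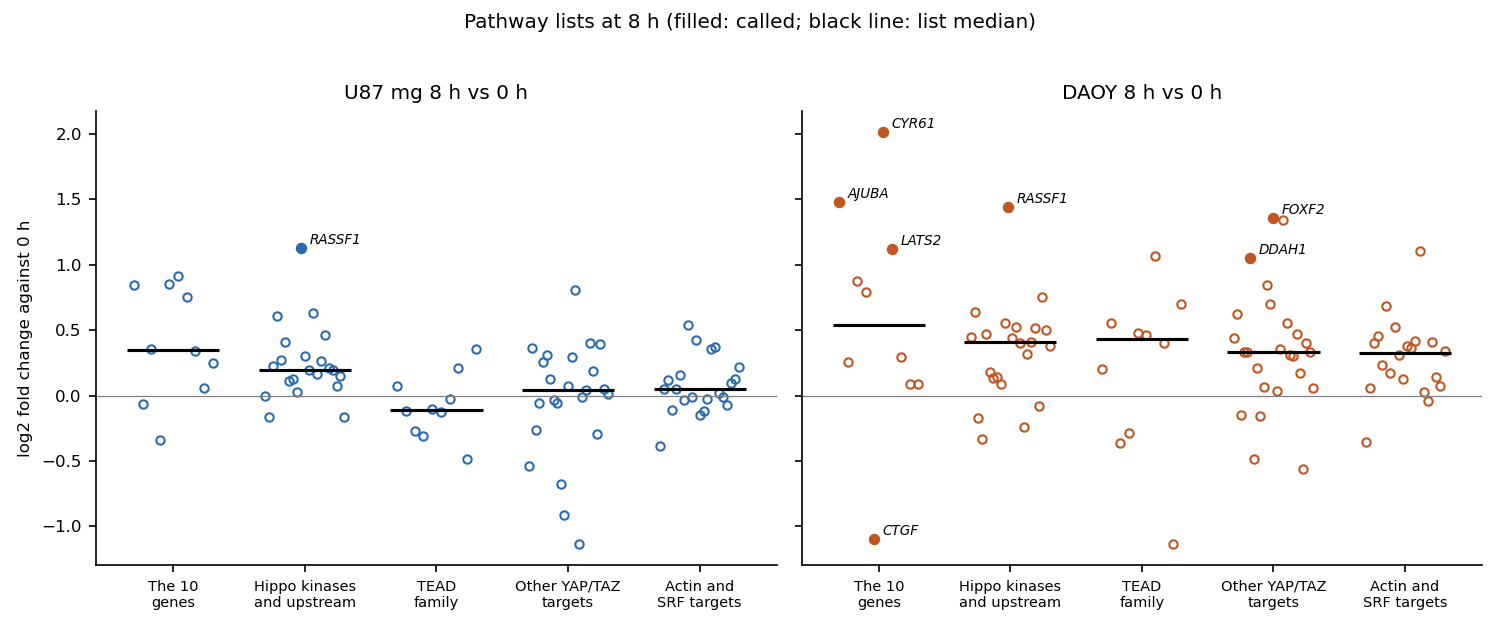
Log2 fold change at 8 h against 0 h (vertical) of each gene of the 10 and of the 4 pathway lists in U87 mg (left) and DAOY (right), with called genes filled and named and the list median as a line. In DAOY the medians lie between 0.32 and 0.54, and CTGF stands below 0 as the 1 called gene that was lower.

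Among the 10 genes, CYR61 and LATS2 followed each other most closely. After each line was centred on its own mean, their log2(TPM + 1) values correlated with a Pearson's r of 0.92 over the 18 samples. AJUBA correlated with LATS2 at 0.84 and with CYR61 at 0.80. CTGF correlated negatively with AMOTL1 (-0.74) and WWTR1 (-0.71). Of 13138 genes that passed the filter in both lines, those outside the 10 that were most like CYR61 were ABL2 (0.88), a gene under the truncated clone name RP11-448G15 (0.88), IP6K2 (0.86), YOD1 (0.85) and RBM25 (0.83). Most like AJUBA were AMD1 (0.90), USP31 (0.90), KIAA0907 (0.89), ANKLE2 (0.87) and PRRG4 (0.87), and most like CTGF were TCTEX1D2 (0.82), CYP4V2 (0.81), JAK2 (0.81), INTS2 (0.81) and UBXN8 (0.80). These values describe 18 points that share lines, times and library depth.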

How the data were processed

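RNA-SEQ was analysed in 18 samples, 3 per cell line (U87 mg, DAOY) and time (0, 2 or 8 h at 250 V/m). The sources used here name poly-A selection with a stranded kit and single-end reads, kallisto 0.43.0 on GENCODE 24, GRCh38.p5 and sleuth 0.28.1. Whether kallisto used strand is not stated, so overlapping antisense genes are uncertain. In a single sheet the authors deposited the estimated count of each transcript in each sample, its TPM, and p-values, q-values and fold changes of their own comparisons, which were not used. An estimated count divides reads shared by transcripts, and samples summed to 8341976 to 15610886, so genes with few counts are imprecise. Interpretation of p-values is limited to the spread between these samples.

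Values were summed by gene name. Clone names are truncated in the table, so some are sums of several genes. Estimated counts were rounded, filtered with filterByExpr, scaled by TMM and tested with glmQLFit and glmQLFTest (edgeR 4.0.16, R 4.3.3) in each line's 9 samples, with p-values adjusted over all genes by Benjamini and Hochberg. The difference between lines and its change used all 18 samples. Calls required an FDR under 0.05 with a log2 fold change of 1 or more in size, or the FDR alone for the difference of changes. Other tools were DESeq2 1.42.0, limma 3.58.1, Python 3.11.15, numpy 2.4.6, pandas 2.3.3 and matplotlib 3.10.9. Alternatives were DESeq2, its size factors in edgeR, other filters, limma on log2(TPM + 1) and log2(TPM + 0.1), the replicate block, the most abundant transcript, other sample sets, the FDR alone and leaving out each sample. Coordinates came from GENCODE 29 on GRCh38 and promoters from RefSeq on GRCh38.p14. The fits were tested on simulated data. The genes and lists were chosen with earlier results of these data known. By rule, the text names all 10 genes, list genes called against 0 h, and the 5 genes most like CYR61, CTGF and AJUBA. The transcripts named are drawn from those with at least 10% of the TPM of their gene. Not all of those are named, and the forms of TEAD1 are not described.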

Additional observations from a re-analysis of the deposited data

How the results depend on the processing

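No log2 fold change of the 10 genes or of RASSF1, FOXF2 and DDAH1 reversed a called direction under any alternative. Counts of genes called over all genes depended on the setting. For U87 mg at 2 h, 0 genes became 3 in DESeq2, 57 without a filter, 1 in limma with either pseudocount, 2 with only the 6 samples compared and 0 to 71 without 1 sample, the highest without replicate 0 at 0 h. For U87 mg at 8 h, 90 genes became 233 without a filter, 8 and 2 in limma on log2(TPM + 1) and log2(TPM + 0.1), 11 with the most abundant transcript, 0 with only the 6 samples compared, 58 with all 18 samples, 243 by the FDR alone and 0 to 136 without 1 sample, the lowest without replicate 2 of the 8 h samples and the highest without replicate 0 of the controls. For DAOY at 2 h, 0 genes became 1 in DESeq2 and 18 without a filter, CYR61 among them, and stayed at 0 without any 1 sample. For DAOY at 8 h, 482 genes became 302 in limma on log2(TPM + 1), 49 with the most abundant transcript, 178 with only the 6 samples compared, 732 with all 18 samples, 900 by the FDR alone and 31 to 402 without 1 sample, with 31 without replicate 1 and 75 without replicate 2 at 8 h. For the difference of the 8 h changes, 2 genes became 84 in DESeq2, 158 without a filter (CYR61 and CTGF among them), 1 when every sample needed at least 10 counts, 6 and 1 in limma with pseudocounts of 1 and 0.1, 0 with the replicate block and 1 to 5 without 1 sample. For DAOY against U87 mg at 0 h, 6786 genes became 3289 when every sample needed at least 10 counts and 6671 to 7068 without 1 sample. The cause of these shifts was not tested.

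Samples with the same replicate number did not vary together in every pair. The deviations from group means correlated at -0.17 to 0.26 in U87 mg (median 0.15), with 5 of 9 pairs over 0.1, and at -0.20 to 0.44 in DAOY (median 0.06), with 2 of 9. Pairs with different numbers correlated at -0.25 to 0.27 in U87 mg (median -0.04), with 3 of 18 over 0.1. In DAOY such pairs correlated at -0.27 to 0.45 (median -0.16), with 7 of 18 over 0.1. The replicate block gave 68 and 326 calls at 8 h in U87 mg and DAOY, within 1.5 times the counts without it. With the block, CTGF and DDAH1 in DAOY at 8 h lost their calls, and no other call of the 10 genes against 0 h changed. RASSF1 was not called in limma, with the most abundant transcript or with only the 6 samples compared in either line. CYR61 passed the fold change at 0 h between lines without replicate 1 of either line (1.03 and 1.06). ANKRD1 had the fewest counts of the 10 genes.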

Other observations

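The pathway genes outside the 10 also differed between the lines before any field, and not in 1 direction. Of 25 other YAP/TAZ targets, 6 were called higher and 10 lower in DAOY than in U87 mg at 0 h, where 23.4% and 17.8% of all genes were called higher and lower. The genes singled out here were chosen after their values were seen. Lower in DAOY were AXL, a receptor tyrosine kinase (log2 fold change -3.17, SE 0.15, adjusted p = 2.20e-11 in edgeR), and NT5E, the ectonucleotidase CD73 (-3.02, SE 0.36, adjusted p = 1.30e-06 in edgeR). Higher in DAOY were THBS1, a matricellular thrombospondin (4.59, SE 0.54, adjusted p = 1.28e-06 in edgeR), and FSTL1, a secreted glycoprotein (1.90, SE 0.21, adjusted p = 7.00e-07 in edgeR). CTGF, which was higher in DAOY, thus stood with THBS1 and opposite to AXL and NT5E.

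Of the TEAD family, TEAD2 and TEAD3 were called higher in DAOY at 0 h, while TEAD1 and TEAD4 were not called. TEAD2 was at 25.8 ± 13.4 TPM in DAOY and 0.968 ± 0.241 TPM in U87 mg (SD, n = 3; log2 fold change 5.15, SE 0.48, adjusted p = 7.46e-08 in edgeR). TEAD3 was at 8.92 ± 2.29 and 3.06 ± 1.22 TPM (1.51, SE 0.30, adjusted p = 0.000324 in edgeR). TEAD4 was at 9.52 ± 3.39 and 6.92 ± 1.93 TPM (0.17, SE 0.31, adjusted p = 0.663 in edgeR). TEAD1 was near 46 to 50 TPM in both lines and had the highest mean of these 4 factors in each. LATS1, the sister kinase of LATS2, was at 27.8 ± 1.39 TPM in DAOY and 12.4 ± 2.03 TPM in U87 mg (1.09, SE 0.17, adjusted p = 2.12e-05 in edgeR).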
